A study of Mus musculus with 13 samples.

Results

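The natriuretic peptide system was followed through 6 genes in the right ventricle of the mouse: the peptides Nppa and Nppb, the receptors Npr1, Npr2 and Npr3, and Corin. The genes were taken by name, and all 6 were found among the 26264 genes listed for every library. Polyadenylated RNA was sequenced from 6 wild-type libraries and 7 libraries labelled as a knock-in of the F536C substitution in Dsg2, the gene for desmoglein 2, an adhesion protein in the desmosomes between cardiomyocytes. The series models arrhythmogenic cardiomyopathy with this substitution and asks about PPAR-gamma signalling; no library used here is labelled as treated with an agent. The labels give no strain, zygosity, age, sex, litter or batch. Whether the libraries are from separate animals is not stated, and the p-values then reflect only the variation among these libraries, part of which may be technical.

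Natriuretic peptides are hormones that cardiomyocytes release when the heart wall is stretched. Nppa encodes the precursor of atrial natriuretic peptide, which in the adult is made chiefly in the atria, and Nppb encodes that of B-type natriuretic peptide; both genes are active in the fetal ventricle and return in the loaded or failing adult ventricle. Corin is a membrane-bound protease of cardiomyocytes that cuts the Nppa precursor into the active hormone. Npr1 and Npr2 encode guanylyl cyclase receptors that make cyclic GMP, the former for the Nppa and Nppb peptides and the latter for the C-type peptide encoded by Nppc, whereas Npr3 encodes a receptor without the cyclase domain that removes the peptides from the circulation.

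Nppa and Nppb lie close together on chromosome 4. Their promoters are shown because the RNA of both genes rose in the knock-in libraries. The sequences are the 250 bases before each gene's start in RefSeq (GRCm38.p6, plus strand), an older build than that of the read tables. The Nppa window is chr4:148000472-148000721 and the Nppb window is chr4:147985650-147985899. Capitals mark motif matches.
Nppa: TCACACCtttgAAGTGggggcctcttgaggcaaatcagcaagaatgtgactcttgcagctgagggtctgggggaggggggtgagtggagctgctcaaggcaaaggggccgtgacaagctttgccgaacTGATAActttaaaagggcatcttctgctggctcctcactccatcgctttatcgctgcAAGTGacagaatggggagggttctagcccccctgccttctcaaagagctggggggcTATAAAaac
Nppb: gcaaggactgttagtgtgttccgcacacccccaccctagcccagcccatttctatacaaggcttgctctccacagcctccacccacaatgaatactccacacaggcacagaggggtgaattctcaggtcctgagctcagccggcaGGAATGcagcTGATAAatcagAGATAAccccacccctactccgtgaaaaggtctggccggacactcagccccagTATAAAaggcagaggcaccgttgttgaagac
The motifs searched, on both strands, were the GATA site (AGATAA or TGATAA), the NKX2-5 element (AAGTG), the T-box site (GGTGTGA), the MCAT element (CATTCC), the AP-1 site (TGACTCA or TGAGTCA), the TATA box (TATAAA) and the CArG box. Nppa held a GATA match 122 bases before the start, NKX2-5 matches 239 and 65 bases before it, a T-box match on the minus strand at 250 bases and a TATA match at 9 bases. Nppb held GATA matches at 95 and 84 bases, an MCAT match on the minus strand at 105 bases and a TATA match at 31 bases. No marked matches overlapped. The same windows of Npr1, Npr2, Npr3 and Corin held none of these letters. Of 32536 promoter windows of this length, 16.5% held the GATA letters, 40.6% the NKX2-5 letters, 3.33% the T-box letters, 12.6% the MCAT letters, 12.3% the TATA letters, 4.45% the AP-1 letters and 1.48% the CArG letters. These matches describe the sequence and say nothing of what binds there.

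Totals ran from 14498336 to 29848597 reads per library. Knock-in 4, 5 and 6 stood apart: of their values above 0, 14.4% to 15.0% were not whole numbers, against 4.81% to 5.60% in the other 10 libraries, and the epithelial keratin Krt8 reached 842 to 1016 TPM in them against at most 5.66 TPM elsewhere. TPM is a level scaled for transcript length and library total. Each result is therefore given for all 13 libraries and for the 10 libraries without those 3; the comparisons share the wild-type libraries. Dsg2 itself fell, from 19.5 ± 3.53 TPM (SD, n = 6) to 12.3 ± 2.51 TPM (SD, n = 7), a log2 fold change by edgeR's quasi-likelihood test of -1.08 ± 0.14 (SE) with 13 libraries and -0.97 ± 0.11 (SE) with 10 (p after Benjamini-Hochberg adjustment over all genes 6.96e-05 and 3.17e-05); read numbers do not show the substitution. The ventricular light chain Myl2 lay between 12948 and 37665 TPM across all libraries, so this marker of ventricular muscle was present in each. In bulk tissue, fewer cells of a type and less RNA per cell cannot be told apart, which applies to every value given here.

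Both peptide genes rose and the activating protease fell in the knock-in libraries, while none of the 3 receptors passed the test. With 13 libraries, 3 of the 6 genes were called at an adjusted p under 0.05, against 44.6% of the 14588 genes tested. With 10 libraries it was again 3 of 6, against 43.7% of 14518 genes. All 6 passed the filter on low read numbers in both comparisons. The share of members called was thus near that of all genes. A rise of at least 4-fold was called in 3.35% of genes with 13 libraries and 1.17% with 10, and a fall of at least 2-fold in 4.26% and 2.76%.

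Nppb was lower in every wild-type library than in any knock-in library. Its wild-type level was 194 TPM at the lowest, 225 at the median and 477 at the highest, and its knock-in level was 1570, 2674 and 3895 TPM. Knock-in 1, 2, 3 and 7 stood at 2700, 3895, 2674 and 3636 TPM, and knock-in 4, 5 and 6 were lower at 2184, 2470 and 1570 TPM. The groups did not overlap: the lowest knock-in library, number 6, lay above the highest wild-type library, also number 6. The same was true of CPM (counts scaled by library total and TMM, not per length), at 125.9 ± 59.8 (SD, n = 6) and 882 ± 289 (SD, n = 7); such an upward separation occurred in 8.60% of the genes tested on the CPM scale and 23.6% on the TPM scale with 13 libraries, and in 14.8% and 33.5% with 10. The log2 fold change by edgeR was 2.81 ± 0.31 (SE, adjusted p = 2.69e-05) with 13 libraries and 3.08 ± 0.30 (SE, adjusted p = 2.17e-05) with 10.

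Nppa also rose, with a wider spread between libraries than Nppb. Its wild-type level was 137 TPM at the lowest, 330 at the median and 1534 at the highest, and its knock-in level was 1893, 2825 and 8875 TPM. Knock-in 1, 2, 3 and 7 stood at 4749, 8875, 2234 and 4000 TPM. Wild type 1 was the high wild-type library, with 1534 TPM against at most 513 in the other 5, and knock-in 2 was the high knock-in library. The groups did not overlap in TPM. In CPM they did, since knock-in 6 with 833 CPM lay below wild type 1 with 911 CPM, and 6 of the 7 knock-in libraries lay above all wild-type libraries. The log2 fold change by edgeR was 2.48 ± 0.55 (SE, adjusted p = 0.00344) with 13 libraries and 2.88 ± 0.65 (SE, adjusted p = 0.00636) with 10. Without wild type 1 it was 3.12 and 3.52, and on the log2(TPM + 1) scale, with all libraries of each comparison, it was 3.08 and 3.48; the gene stayed past the threshold in each.

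**Figure D1:**
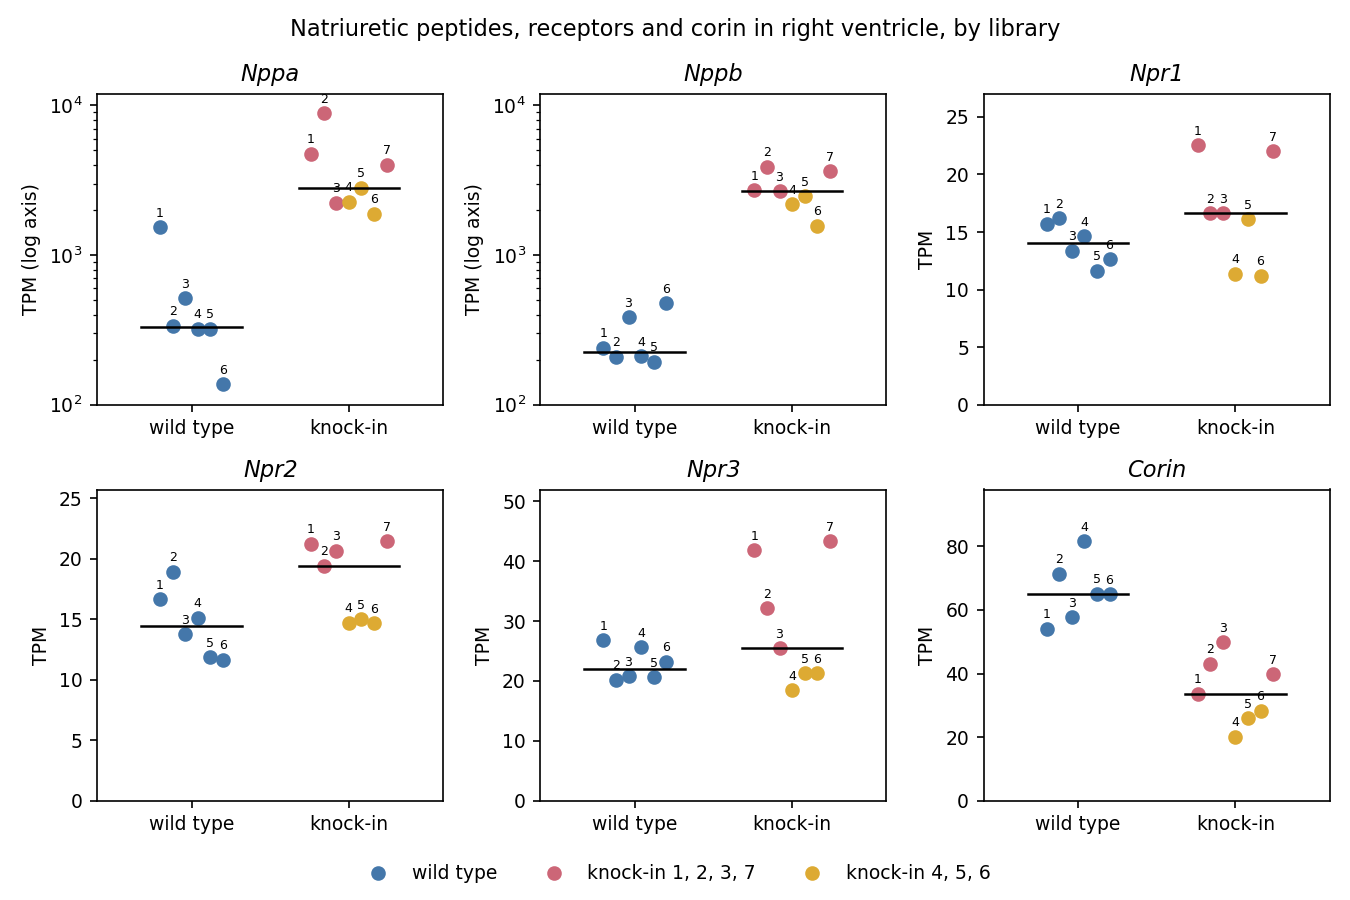
Level of each of the 6 genes in every library, in TPM, with wild type (n = 6), knock-in 1, 2, 3 and 7 (n = 4) and knock-in 4, 5 and 6 (n = 3) as separate points. The axis is a log axis for Nppa and Nppb and a linear axis for Corin and the 3 receptors. Nppa and Nppb lie higher in all 7 knock-in libraries, Corin lies lower in all 7, and the 3 receptors overlap between wild type and the 7 knock-in libraries.

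The peptide genes moved up among the most abundant RNAs of the tissue. Ranked by TPM among 26264 genes, Nppa stood between 120 and 771 in wild type and between 6 and 80 in knock-in, where knock-in 2 held the highest rank. Nppb stood between 303 and 586 in wild type and between 31 and 98 in knock-in. Together their RNA made up 0.0813% ± 0.0492 (SD, n = 6) of TPM in wild type and 0.657% ± 0.313 (SD, n = 7) in knock-in, with 1.28% in knock-in 2.

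Since Nppa is also an atrial gene, its level was set beside 3 other genes of atrial cardiomyocytes: Sln, which encodes the calcium pump inhibitor sarcolipin, and the atrial myosin light chains Myl7 and Myl4. Their summed level ranged from 554 to 3197 TPM in wild type and from 64.0 to 2340 TPM in knock-in, so it varied within both groups and was highest in wild type 1, the wild-type library with the most Nppa. Knock-in 3 had the lowest sum, 64.0 TPM, with 2234 TPM of Nppa. Nppa divided by the sum was 0.248 to 0.573 in wild type and 2.13 to 34.9 in knock-in, and the groups did not overlap. The 34.9 was of knock-in 3, where the sum was lowest, and the next highest was 8.30 in knock-in 6. In TPM alone, 23.6% of all genes tested were separated upward with 13 libraries, and the share on this ratio was not counted. Of the 7 tested genes in the atrial list of 8, 2 rose (Nr2f2 and Dkk3) and 0 fell in either comparison (3 rose with library totals and 13 libraries), and the atrial gene Bmp10 was at 0 in 5 of 13 libraries. The summed log2 CPM of all 8 atrial genes, Nr2f2 and Dkk3 among them, was also used as a covariate in the edgeR fit. With it, the log2 fold change of Nppa was 2.72 (adjusted p = 6.1e-05) with 13 libraries and 2.98 (adjusted p = 7.2e-05) with 10. Nr2f2 and Dkk3 were themselves called higher in knock-in, so this covariate is not free of the difference between the groups. The part that atrial tissue has in the Nppa values was not tested.

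**Figure D2:**
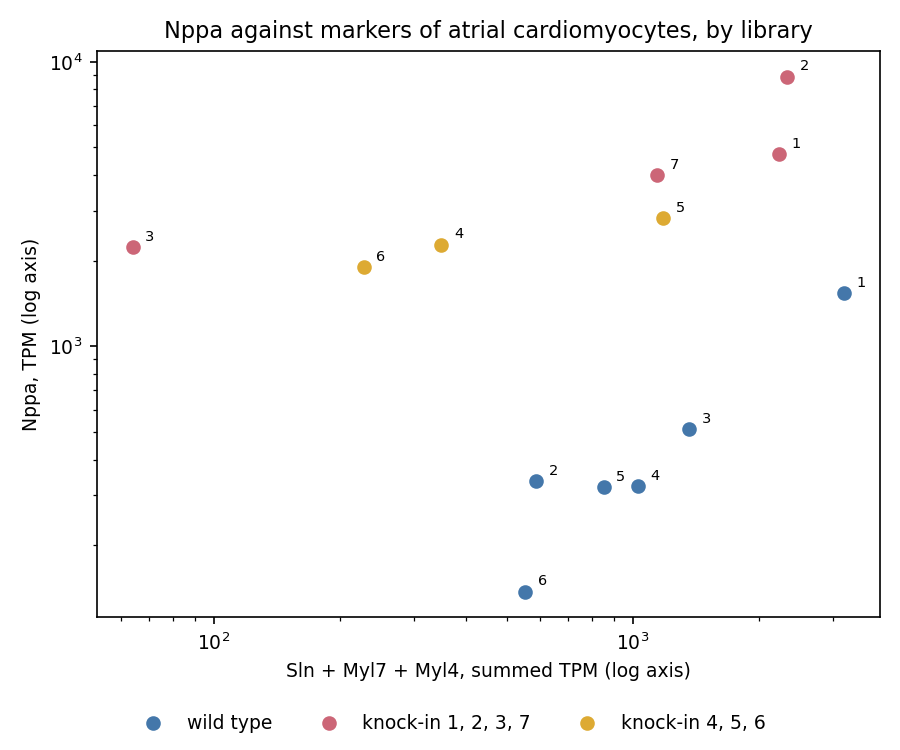
Nppa in TPM (vertical, log axis) against the summed TPM of Sln, Myl7 and Myl4 (horizontal, log axis), 1 point per library. All 7 knock-in libraries lie above all 6 wild-type libraries, and knock-in 3, at the far left with a sum of 64.0 TPM, still had 2234 TPM of Nppa.

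Corin changed in the opposite direction to the peptide that it cuts. Its wild-type level was 54.0 TPM at the lowest, 65.1 at the median and 81.6 at the highest, and its knock-in level was 20.1, 33.7 and 49.8 TPM. Knock-in 1, 2, 3 and 7 stood at 33.7, 43.1, 49.8 and 39.7 TPM, and knock-in 4, 5 and 6 were lowest at 20.1, 25.9 and 28.3 TPM. Every knock-in library lay below every wild-type library, in TPM as in CPM (283 ± 43.3, SD, n = 6, and 111 ± 38.7, SD, n = 7); a downward separation of this kind occurred in 2.81% of genes on the TPM scale and 10.5% on the CPM scale with 13 libraries, and in 3.46% and 15.0% with 10. The log2 fold change by edgeR was -1.36 ± 0.21 (SE, adjusted p = 0.000217) with 13 libraries and -1.04 ± 0.14 (SE, adjusted p = 0.000100) with 10.

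The fall of Corin was set beside markers of cardiomyocytes. All 6 markers of cardiomyocytes tested (Tnnt2, Tnni3, Ryr2, Actn2, Myh6 and Ttn) fell with 13 libraries and 5 of 6 with 10; their summed level was 26340 to 38613 CPM in wild type and 11263 to 22791 CPM in knock-in. All 6 markers of ventricular cardiomyocytes fell in both comparisons. With library totals 5 and 4 of the cardiomyocyte markers and 6 and 5 of the ventricular markers fell with 13 and 10 libraries. Mybpc3, a cardiac myosin-binding protein outside these lists, did not pass in either comparison (-0.12, adjusted p = 0.511, and 0.10, adjusted p = 0.554). Relative to the mean log2 TPM of the 6 cardiomyocyte markers, Corin differed by -0.38 with 13 libraries and -0.29 with 10, a smaller difference than without this scaling, with wild type at -3.63 to -3.30 and knock-in at -4.20 to -3.70, still without overlap. Relative to the same markers Nppa was higher by 3.69 and 3.85, and Nppb by 3.90 and 3.94. Npr1 was higher by 0.82 and 0.84, Npr2 by 0.92 and 0.89, and Npr3 by 0.89 and 0.99. Nppa, Nppb and Npr2 were likewise without overlap in both comparisons, while Npr1 and Npr3 overlapped. How many of all genes were separated on this scale was not counted. This scaling was added after the data had been seen and has no test; the part that the share of cardiomyocytes has in these results was not tested.

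On the TPM scale the receptors lay far below the peptides in every library; Npr3 lay above the other 2 receptors, which overlapped with each other. Npr1, the receptor for both heart peptides, had 11.6 TPM at the lowest, 14.01 at the median and 16.2 at the highest in wild type, and 11.2, 16.6 and 22.5 TPM in knock-in. Npr2, the receptor for the C-type peptide, had 11.7, 14.5 and 18.9 TPM in wild type and 14.7, 19.4 and 21.4 TPM in knock-in. Npr3, the clearance receptor, had 20.2, 22.02 and 26.8 TPM in wild type and 18.5, 25.4 and 43.3 TPM in knock-in. With 13 libraries the groups overlapped for all 3 receptors. With 10 libraries, all 4 knock-in libraries lay above every wild-type library in TPM for Npr1 and Npr2, though not in CPM, and 3 of 4 did so for Npr3; every knock-in library lay above every wild-type library in TPM in 33.5% of all genes tested.

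In each receptor the knock-in libraries were split by the set that stood apart. Npr1 was 45.9 to 62.3 CPM in knock-in 1, 2, 3 and 7 and 28.2 to 38.8 CPM in knock-in 4, 5 and 6, around the 46.4 to 53.1 CPM of wild type. Npr2 was 53.6 to 56.6 CPM in the former, 35.0 to 39.6 CPM in the latter and 43.7 to 55.4 CPM in wild type. Npr3 was 125.2 to 200.1 CPM in the former, 87.4 to 89.2 CPM in the latter and 107 to 163 CPM in wild type. The 3 libraries that stood apart thus lay below all wild-type libraries in CPM for each receptor. In TPM they overlapped with wild type for each receptor. How many of all genes lay below wild type in CPM in these 3 libraries was not counted.

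No receptor passed the test by edgeR in either comparison. With 13 libraries the log2 fold changes were -0.17 ± 0.17 for Npr1 (SE, adjusted p = 0.414), -0.10 ± 0.14 for Npr2 (SE, adjusted p = 0.570) and -0.10 ± 0.21 for Npr3 (SE, adjusted p = 0.715). With 10 libraries they were 0.09 ± 0.09 (adjusted p = 0.447), 0.12 ± 0.08 (adjusted p = 0.242) and 0.23 ± 0.14 (adjusted p = 0.196). The sign and the call of these small differences depended on the scaling. When libraries were scaled by their totals and not by TMM, which moved the median over all genes from 0.08 to 0.33 with 13 libraries and from 0.02 to 0.26 with 10, they became 0.082, 0.14 and 0.15 with 13 libraries, none of them called, and 0.34, 0.36 and 0.48 with 10, all 3 called higher (adjusted p = 0.0246, 0.0122 and 0.0124), as were 41.7% of all genes under that scaling. On the log2(TPM + 1) scale all 3 were likewise called higher with 10 libraries, by 0.44, 0.49 and 0.60, as were 53.3% of all genes on that scale. Without knock-in 3, Npr3 was called higher in the TMM comparison of 10 libraries, by 0.34 (adjusted p = 0.0456). The direction of a receptor therefore cannot be given apart from the scaling.

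**Figure D3:**
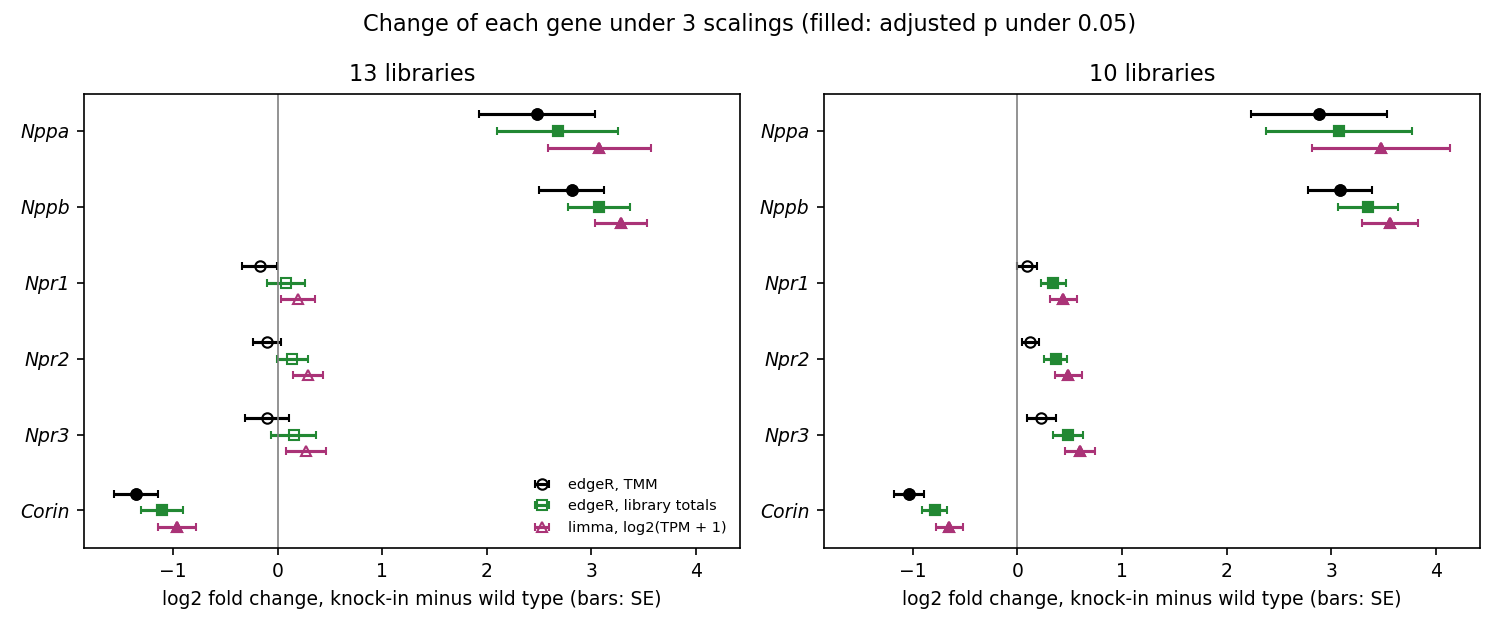
Log2 fold change of each gene, knock-in minus wild type, with SE bars, under edgeR with TMM, edgeR with library totals and limma on log2(TPM + 1), for 13 libraries (left) and 10 libraries (right); filled symbols have an adjusted p under 0.05. Nppa, Nppb and Corin are filled under every scaling, and the receptors are filled in 10 libraries under the scalings other than TMM.

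The endocardium, where Npr3 is abundant, was followed by a list of markers chosen for it, which were not shown here to be particular to it. None of 6 endocardial markers (Cytl1, Tmem100, Plvap, Vwf, Hapln1 and Nfatc1) passed the test with 13 libraries and 4 rose with 10 (Cytl1, Plvap, Vwf and Nfatc1). Their summed level was 299.6 to 487 CPM in wild type and 313 to 914 CPM in knock-in. Of 6 endothelial markers, 0 passed with 13 libraries and 2 rose with 10. These counts depended on the scaling: with library totals 3 endocardial and 1 endothelial marker rose with 13 libraries, and 4 of each with 10. The part of these cells in the receptor values was not tested.

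Neighbouring transcripts may share reads with these genes. In a GENCODE annotation of the older build, exons of 5 of the 6 genes overlap a transcript on the opposite strand: Nppa by 532 bases (Gm13054), Npr1 by 559 (Gm16048), Npr3 by 321 (Gm5144), Npr2 by 266 (Gm12473) and Corin by 147 (Gm20647). The libraries were made with a stranded kit, but the strand setting of the counting is not given, so reads of a gene and its partner may be pooled. Of the partners, only Gm5144 is listed in the read tables, with at most 8.42 reads in any library against 1910 to 5295 reads of Npr3.

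Ratios between the genes were compared as log2 ratios of TPM + 0.1, with exact two-sided permutation of the libraries between the groups and adjustment over 4 ratios. Corin over Nppa differed by -4.06 with 13 libraries (exact p = 0.000583, adjusted p = 0.00233) and by -4.14 with 10 (exact p = 0.00476, adjusted p = 0.0190), each the smallest p that the number of libraries allows. Both genes already separated the groups in TPM, in opposite directions. The p of this ratio therefore had to lie at or near its floor and adds nothing to the results of the single genes. With 10 libraries the call was lost when wild type 2, 3, 4, 5 or 6 was left out (adjusted p = 0.0635 each). Nppb over Nppa differed by 0.21 with 13 libraries (exact p = 0.686) and 0.09 with 10 (exact p = 0.895). Without scaling to logs it ranged from 0.156 to 3.47 in wild type and from 0.439 to 1.197 in knock-in, so the peptide that was in excess differed between libraries of both groups. Npr3 over Npr1 differed by 0.07 (exact p = 0.534) and 0.15 (exact p = 0.267), and Npr2 over Npr1 by 0.10 (exact p = 0.315) and 0.05 (exact p = 0.586); neither passed the test.

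**Figure D4:**
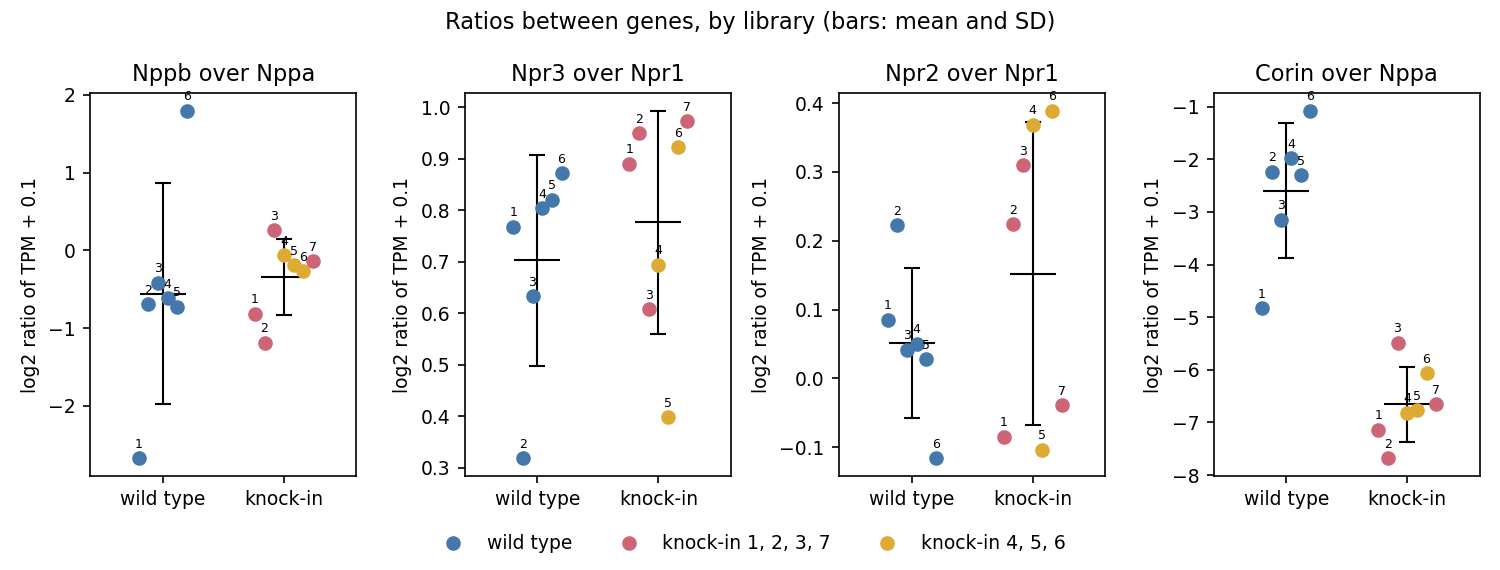
Log2 ratios of TPM + 0.1 between pairs of the 6 genes, 1 point per library, by group. Corin over Nppa is lower in all 7 knock-in libraries than in any wild-type library, and Nppb over Nppa, Npr3 over Npr1 and Npr2 over Npr1 overlap between the groups.

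The other genes of the pathway were read from 5 lists, and each count is set against the genes tested: 23.6% were called higher and 21.0% lower with 13 libraries, and 22.3% and 21.3% with 10. That near balance belongs to the TMM scaling: with library totals 41.9% were called higher and 11.4% lower with 13 libraries, and 41.7% and 10.5% with 10. Among the genes that process or degrade the peptides, 0 of 7 tested rose and 2 fell with 13 libraries, with a list median log2 fold change of -0.14 against 0.08 for all genes, and with 10 libraries 2 rose (Ece1 and Pam) and 2 fell, with a median of 0.09 against 0.02. With library totals 3 rose and 1 fell, and 4 rose and 2 fell. Those that fell in both were Mme, which encodes neprilysin, a membrane protease that degrades the peptides, by 0.91 ± 0.23 (SE, adjusted p = 0.00565) and by 1.39 ± 0.13 (SE, adjusted p = 4.67e-06), and Ide, the insulin-degrading enzyme, by 0.47 ± 0.10 (SE, adjusted p = 0.00229) and by 0.62 ± 0.09 (SE, adjusted p = 0.000124). With library totals, Ide missed the threshold with 13 libraries (-0.22, adjusted p = 0.0966). Furin, a protease that cuts the Nppb precursor, differed by 0.07 ± 0.11 (adjusted p = 0.6255) and 0.09 ± 0.10 (adjusted p = 0.491). Nppc, which encodes the C-type peptide, was too low to test: it had 0 to 7 reads in 11 libraries, 79 reads in knock-in 5 and 221 reads in knock-in 6, both of them libraries that stood apart.

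Of 13 tested genes that make, sense or break down cyclic GMP, 3 were higher and 3 lower by the test with 13 libraries; with 10 it was 6 and 2, with list medians of 0.29 and 0.28. With library totals it was 6 and 2, and 8 and 2. Pde3a, a phosphodiesterase of cyclic AMP that cyclic GMP inhibits, fell by 1.08 ± 0.20 (adjusted p = 0.000841) and by 0.75 ± 0.11 (adjusted p = 0.000162). Pde1c, a calmodulin-dependent phosphodiesterase of both cyclic nucleotides, fell by 0.80 ± 0.15 (adjusted p = 0.00107) and by 0.65 ± 0.13 (adjusted p = 0.00102). Its relative Pde1a rose by 0.68 ± 0.18 (adjusted p = 0.00896) and by 0.96 ± 0.11 (adjusted p = 2.72e-05). Of 12 tested substrates and effectors of the cyclic GMP kinase, 3 were called higher and 2 lower with 13 libraries, and 1 and 2 with 10, with medians of 0.05 and 0.09. Scaled by library totals, it was 5 higher and 2 lower with 13 libraries, and 7 and 2 with 10. Kcnma1, a calcium-activated potassium channel, rose by 2.60 ± 0.39 (adjusted p = 0.00018) and by 1.95 ± 0.31 (adjusted p = 0.000266) from a low level, 0.252 TPM in wild type. Rgs2, a brake on G protein signalling, fell by 1.32 ± 0.20 (adjusted p = 0.000223) and by 1.40 ± 0.26 (adjusted p = 0.00125), and Pln, the calcium pump inhibitor phospholamban, fell by 1.28 ± 0.20 (adjusted p = 0.000249) and by 1.00 ± 0.18 (adjusted p = 0.000559).

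Of 18 tested transcription factors known at the Nppa and Nppb promoters, 1 rose and 9 fell in each comparison, with medians of -0.35 and -0.22. This balance rests on the scaling: scaled by library totals, 2 were called higher and 3 lower with 13 libraries, and 4 and 1 with 10. Mef2a, a cardiomyocyte factor, fell by 0.63 ± 0.10 (adjusted p = 0.000354) and by 0.55 ± 0.11 (adjusted p = 0.000945). Tbx5, a T-box factor, fell by 0.89 ± 0.19 (adjusted p = 0.00238) and by 0.61 ± 0.15 (adjusted p = 0.005), and with library totals it missed the threshold with 10 libraries (-0.37, adjusted p = 0.0828). Nfatc4, a factor activated by calcineurin, was the gene that rose, by 1.24 ± 0.23 (adjusted p = 0.000989) and by 0.73 ± 0.13 (adjusted p = 0.000504). Of factors known for the letters marked in the promoters, Nkx2-5 fell with TMM by 0.59 and by 0.40, Gata6 fell by 0.57 and by 0.33, and Gata4 was called lower with 13 libraries (-0.37) and not with 10 (-0.15, adjusted p = 0.233). Tead1, a factor for the MCAT element, did not pass (-0.05 and 0.14), nor did the T-box genes Tbx20 (0.0064 and 0.30), Tbx2 (0.11 and 0.07) and Tbx3 (0.09 and -0.02). With library totals and 10 libraries, the 1 factor called lower was Mef2a (-0.31, adjusted p = 0.0162 by edgeR), so Nkx2-5 and Gata6 were not. With 10 libraries the mean TPM of Nkx2-5 was 53.7 in wild type and 53.5 in knock-in, and that of Gata6 30.6 and 31.5.

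Of 12 tested genes of the fetal ventricle and of ventricular load, 6 rose and 2 fell with 13 libraries, and 7 and 2 did so with 10, with medians of 0.55 and 0.52. With library totals these were 6 and 2, and 10 and 2. Acta1, the skeletal alpha-actin of the fetal heart, went from 21.1 ± 8.85 TPM (SD, n = 6) to 642 ± 295 TPM (SD, n = 7), and rose by 4.51 ± 0.38 (adjusted p = 4.75e-06) and by 4.05 ± 0.34 (adjusted p = 1.57e-05). Gdf15, a stress-induced secreted factor, rose by 4.04 ± 0.31 (adjusted p = 1.67e-06) and by 4.13 ± 0.28 (adjusted p = 6.79e-07), and Ankrd1, a stretch-responsive protein of the sarcomere, by 2.29 ± 0.26 (adjusted p = 2.87e-05) and by 2.55 ± 0.24 (adjusted p = 8.71e-06). The 2 that fell were Myh6, the adult cardiac myosin heavy chain, and Atp2a2, the calcium pump of the sarcoplasmic reticulum.

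The genes whose level over the 13 libraries was most like each member's are given as a description, from the Pearson r of log2 CPM with the 10059 genes that averaged 10 CPM or more. The points share library depth, and where a gene differs between the groups the r holds that difference, so r after removing each group's mean is given second. For Nppa they were Frzb (0.96 and 0.89), Ttc9 (0.96 and 0.86) and Sumf1 (0.95 and 0.84). For Nppb they were Tnfrsf12a (0.98 and 0.83), Kcne4 (0.97 and 0.73) and Fbln2 (0.96 and 0.71). For Corin they were Rbm20 (0.99 and 0.95), Lclat1 (0.99 and 0.95) and Slc47a1 (0.99 and 0.94). For Npr1 they were 2510009E07Rik, Irf3 and Il11ra1, for Npr2 Zfp740, Pwwp3a and Ccdc71, and for Npr3 Arl6, Cytl1 and Gm14296, with r between 0.92 and 0.96. Over the 10 libraries these receptor values were lower, between 0.73 and 0.87. Between the peptides r was 0.81 over 13 libraries and 0.18 with the group means removed.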

How the data were processed

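Polyadenylated RNA of mouse right ventricles was sequenced from stranded Illumina libraries, per the labels. DRAGEN and GRCm39 (mm39) are named in the submitters' processing notes; no version, annotation or strand setting is given in the sources used here. The deposited table of each library gives, per the file headers, estimated counts of reads, TPM and length in bases for every gene. Groups came from the titles.

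Estimated counts were rounded, filtered with filterByExpr, scaled by TMM and tested with edgeR 4.0.16 (R 4.3.3; quasi-likelihood F test, robust, no covariate, Benjamini-Hochberg adjustment over all tested genes, threshold 0.05), for 13 libraries and for 10 without knock-in 4, 5 and 6. SE values are the log2 fold change over the root of its F statistic. Log2 CPM used a prior count of 2, and a value was called whole within 1e-09. Only the edgeR fit with TMM was tried on simulated counts, and the outcome is not given here. Ratios were tested with exact permutation in Python 3.11.15.

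The members and lists were chosen with earlier results of these data known. Named were the 6 members, Dsg2, per pathway list the 3 called genes with the smallest p with 13 libraries, and per member the 3 genes most alike; other genes were named after their values were seen. Irag1 was matched as Mrvi1. Alternatives were DESeq2 (1.42.0) and its size factors, library totals, limma (3.58.1) on voom values, log2(TPM + 1) and log2(TPM + 0.1), other filters, a replicate block, an atrial covariate, an indicator for knock-in 4, 5 and 6, and each library left out. Promoters came from RefSeq (GRCm38.p6), matched by symbol for 6 of 6 members.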

Additional observations from a re-analysis of the deposited data

Results flagged for a closer look

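Of 12 sets of values checked (6 genes in each of the 2 groups), 2 held a library far from the others by Dixon's test; chance flags about 1 set in 20. Both were of Nppa. In wild type 1 Nppa stood at 911 CPM, the highest of 6 libraries, beside a summed level of Sln, Myl7 and Myl4 of 3197 TPM, also the highest of 6. In knock-in 2 Nppa stood at 4421 CPM, the highest of 7 libraries, beside a sum of those genes of 2340 TPM, also the highest of 7.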

How the results depend on the processing

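Nppb and Corin kept their direction and call under every alternative with a test, and Nppa under all but the replicate block with 10 libraries. Leaving out each library in turn with 13 and 10 libraries gave log2 fold changes of 2.09 to 3.12 and 2.40 to 3.52 for Nppa, 2.68 to 3.08 and 2.94 to 3.33 for Nppb, -1.48 to -1.26 and -1.15 to -0.96 for Corin, -0.27 to -0.08 and 0.0070 to 0.16 for Npr1, -0.15 to -0.04 and 0.08 to 0.15 for Npr2, and -0.22 to -0.02 and 0.13 to 0.34 for Npr3. The counts of called genes were 5490 to 6830 and 5178 to 6739. The log2 ratios ranged from -4.51 to -3.76 and -4.59 to -3.83 for Corin over Nppa, -0.21 to 0.68 and -0.34 to 0.56 for Nppb over Nppa, -0.0030 to 0.14 and 0.08 to 0.24 for Npr3 over Npr1, and 0.06 to 0.14 and -0.018 to 0.11 for Npr2 over Npr1. Nppb over Nppa reversed without wild type 1 (-0.21 and -0.34) and, with 10 libraries, without knock-in 3 (-0.16) or 7 (-0.03); Npr3 over Npr1 reversed with 13 libraries without wild type 2 (-0.0030), and Npr2 over Npr1 with 10 without knock-in 3 (-0.018). With 13 libraries Npr1, Npr2 and Npr3 reversed to 0.082, 0.14 and 0.15 with library totals, 0.072, 0.12 and 0.15 with voom, 0.20, 0.29 and 0.27 on log2(TPM + 1) with or without a filter, 0.21, 0.31 and 0.28 on log2(TPM + 0.1), and 0.092, 0.12 and 0.23 with the indicator, none of them called. With 10 libraries they were called at 0.34, 0.36 and 0.48 with library totals, 0.44, 0.49 and 0.60 on log2(TPM + 1) with or without a filter, and 0.46, 0.51 and 0.62 on log2(TPM + 0.1); the cause was not tested. Relative to cardiomyocyte markers, added after seeing the data and without a test, the values with 13 and 10 libraries were 3.90 and 3.94 for Nppb, 0.82 and 0.84 for Npr1, 0.92 and 0.89 for Npr2, 0.89 and 0.99 for Npr3, and -0.38 and -0.29 for Corin. Whether the replicate numbers pair the libraries is not stated in the labels. After each group's mean was removed, same-numbered libraries correlated at -0.113 to 0.085 with 13 libraries. With 10 libraries they correlated at 0.238, 0.128 and -0.036 for numbers 1, 2 and 3. None correlated best with its own number, which cannot show that the libraries were not paired. With the replicate block, 4811 genes were called in place of 6502 with 13 libraries and 2785 in place of 6340 with 10, where Nppa was 2.43 (adjusted p = 0.181) and Npr1 -0.0040. With 10 libraries only numbers 1, 2 and 3 occur in both groups, so the blocked fit draws the difference from those libraries alone. With 13 libraries knock-in 7 has no wild-type library of its number and adds nothing to the blocked difference. Depth did not limit the 6 members, which had at least 679 reads in every library, but Nppc was too low to test.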

Other observations

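Markers of other cell types in the same libraries moved as follows, counted as called by edgeR with TMM and an adjusted p under 0.05, against 23.6% of all genes called higher with 13 libraries and 22.3% with 10. Of 6 markers of valve and tendon cells, 5 rose in both comparisons and 0 fell, with medians of 2.18 with 13 libraries and 2.41 with 10, and their summed level was 45.6 to 95.9 CPM in wild type and 231 to 606 CPM in knock-in. Of 6 fibroblast markers 2 rose with 13 libraries and 5 with 10, and of 6 macrophage markers 3 rose with 13 and 6 with 10. All 4 tested epithelial markers rose with 13 libraries and 0 passed with 10. Of 6 mural cell markers 2 were called higher and 2 lower with 13 libraries, and 2 and 1 with 10. Of 6 conduction cell markers 1 was called higher and 2 lower with 13, and 1 and 1 with 10. None of 6 adipocyte or 3 tested erythroid markers passed in either comparison. The counts depended on the scaling: with library totals 5 fibroblast and 6 macrophage markers rose with 13 libraries and 6 of each with 10, 6 valve and tendon markers rose in both comparisons, 4 mural markers rose and 1 fell in both, 3 and 2 conduction markers rose and 1 fell in each, and 1 epithelial marker rose with 10. The part of these cells in the values of the natriuretic genes was not tested.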
